A study of Helianthus annuus with 12 samples.

Results

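Seeds of 2 sunflower (Helianthus annuus) cultivars were compared at 27 days after flowering (DAF), gene by gene across the transcriptome. The comparison sets cultivar 86-1, with 3 libraries, against cultivar L-1-OL-1, with 3 libraries, and all 6 libraries come from seed. A gene was a member when its level reached an FPKM of at least 1 in 3 or more of these 6 libraries, which 26055 of the 48882 genes in the deposited table did. The filter let in 5691 genes with exactly 3 libraries at or above 1 FPKM and kept out 1991 with exactly 2. FPKM divides the sequenced fragments of a gene by its length and by the mapped fragments of the library, so levels can be set side by side between genes. The series also holds 3 libraries of each cultivar at 17 DAF, used here only where the 2 stages were set against each other. The labels present the study as a comparison of high and low oleic sunflowers, describe oleic acid as rising fast at 17 DAF and staying about level at 27 DAF, and do not say which cultivar is which. They name no mutation, transgene or treatment for either cultivar. Whether replicates were grown or harvested apart is not in the labels, so p-values here rest on a spread among libraries that may be technical.

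A sunflower seed fills its cotyledons with oil and storage protein, and then dries. During filling, sucrose unloaded from the maternal tissues feeds glycolysis and plastid fatty acid synthesis, triacylglycerol collects in oil bodies coated with oleosins, and 11S globulins and 2S albumins are packed into protein bodies. Towards drying, the embryo makes late embryogenesis abundant (LEA) proteins and small heat shock proteins, which protect other proteins and membranes as water leaves, and it stores RNAs that serve germination.

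All libraries carried the defining transcripts of seed: 143 genes of storage proteins, oleosins and LEA proteins, 97 of them tested, summed to between 128561 and 255429 FPKM in 86-1 and between 47836 and 55525 FPKM in L-1-OL-1. FPKM totals lay between 651754 and 683903 in 86-1 and between 605655 and 618013 in L-1-OL-1. The number of reads is unknown from FPKM, but relative depth, read from the spacing of low values, was between 0.92 and 1.15 when replicate 1 of 86-1 was set to 1. Across the tested genes, Pearson's r was 0.948 to 0.969 within 86-1, 0.939 to 0.971 within L-1-OL-1 and 0.560 to 0.628 between the cultivars (genes are not independent replicates). Within 86-1, replicate 3 stood apart: seed storage protein genes took 10.3% of its FPKM total, against 34.5% and 25.1% in replicates 1 and 2. In L-1-OL-1 the same genes took 0.783%, 1.1% and 2.68%. The 10 most abundant genes of each library held 13.3% to 32.6% of the total in 86-1 and 7.49% to 9.44% in L-1-OL-1. Because FPKM divides by a library's total, a large share in few genes lowers the values of all others, and the median log2 difference over all tested genes was -0.24. Median-of-ratios scaling moved that median to -0.03 and quantile normalization to -0.09, so the medians of gene lists are given below with their distance from the median of all tested genes.

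**Figure D1:**
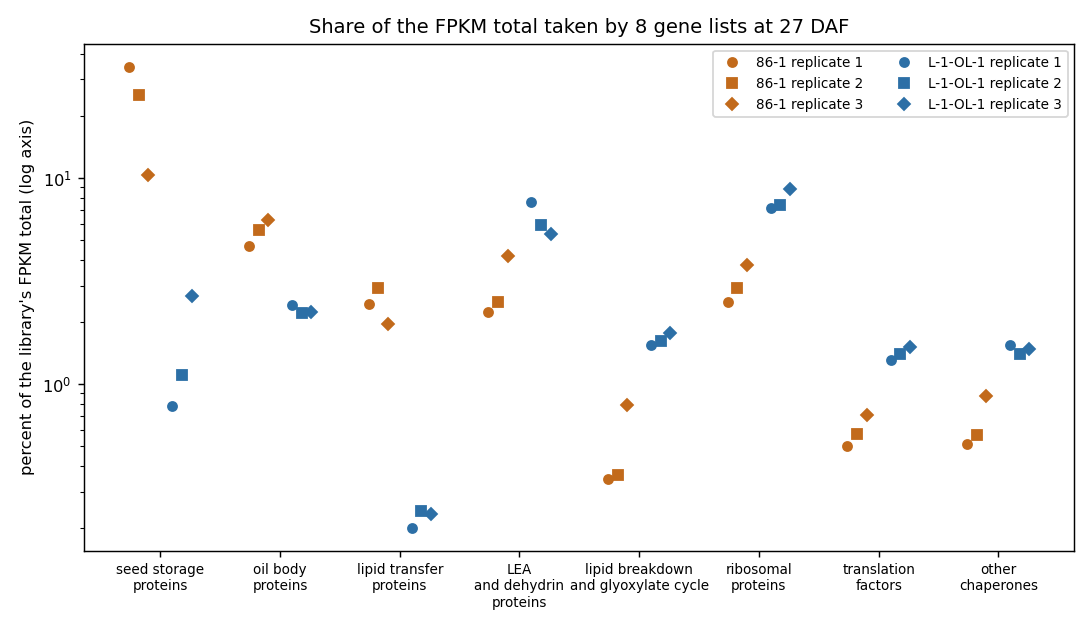
Share of each library's FPKM total (percent, log axis) taken by 8 gene lists at 27 DAF, with the 3 libraries of 86-1 left of the 3 libraries of L-1-OL-1 and 1 symbol shape per replicate number. Seed storage protein genes took 10.3% to 34.5% in 86-1 and 0.783% to 2.68% in L-1-OL-1, while the ribosomal protein genes took 2.49% to 3.79% in 86-1 and 7.16% to 8.78% in L-1-OL-1.

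A majority of the tested genes differed between the cultivars. Of 26055 genes, 15071 (57.8%) passed an adjusted p of 0.05 in limma, 6204 (23.8%) of them higher and 8867 (34%) lower in 86-1. A difference of 2-fold or more was reached by 11190 of these (42.9%). The libraries of the 2 groups did not overlap for 16760 genes (64.3%), and 11555 genes (44.3%) were called in the same direction whichever of the 6 libraries was left out. Without replicate 3 of 86-1 the counts were 5720 higher and 10441 lower. With median-of-ratios scaling they were 8290 higher and 8555 lower, and the share of called genes that were higher was 49.2% in place of 41.2%. The labels give the tissue only as seed, and fewer cells of a tissue and less RNA per cell cannot be told apart in any of these differences. Below, values of single genes are given for replicates 1, 2 and 3 in that order, and the brackets hold the log2 difference ± SE, on the log2(FPKM + 1) scale, and limma's Benjamini-Hochberg adjusted p. This scale understates the change of genes at low levels. In each gene given as higher or lower at 27 DAF the groups did not overlap and the call held without any single library of 27 DAF, except for gene48930 and gene44145, which were chosen for a change between the stages.

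**Figure D2:**
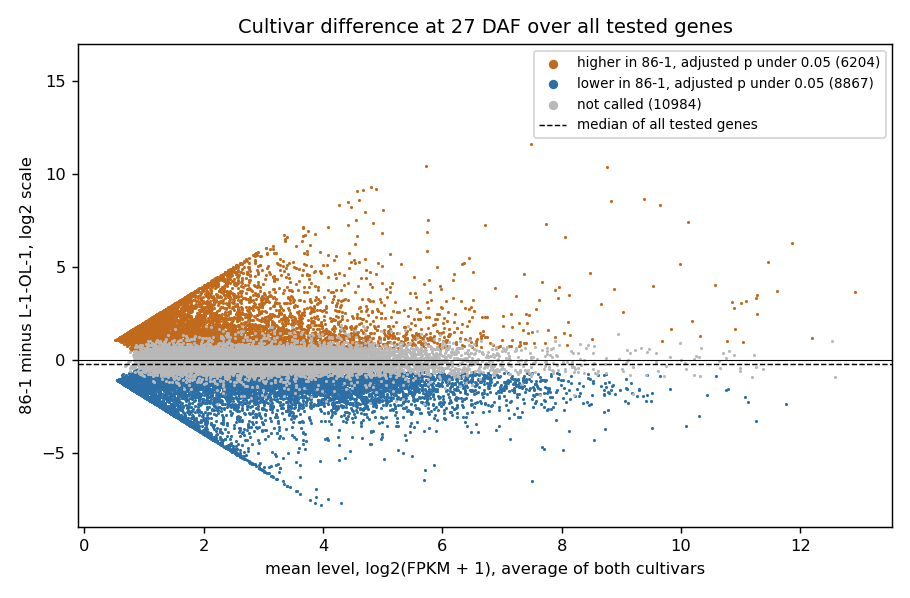
Log2 difference between 86-1 and L-1-OL-1 at 27 DAF (vertical axis) against the mean level of both cultivars as log2(FPKM + 1) (horizontal axis), 1 point per tested gene. The 6204 genes higher and 8867 genes lower in 86-1 are coloured, and the dashed line marks the median of all tested genes at -0.24.

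The genes with the highest levels were of different kinds in the 2 cultivars. Among the 15 genes with the highest mean FPKM in 86-1, 10 were in the list of storage proteins, 3 were oleosins, 1 was a lipid transfer protein and 1, described as a glutelin, was outside the lists. Among the 15 highest in L-1-OL-1, 5 were LEA or seed maturation proteins and 2 were oleosins. The others there included a small heat shock protein, glyoxysomal malate synthase, polyubiquitin and a glycine-rich protein. The highest of 86-1 was the 11S seed storage protein gene16080, with 50145, 36494 and 11936 FPKM in 86-1, against 250.4, 237 and 773 FPKM in L-1-OL-1 (6.28 ± 0.66, adjusted p = 7.69e-05). Both cultivars held the same 2 oleosins among their highest genes. One of them, gene67185, had 5807, 7863 and 11773 FPKM in 86-1, against 4927, 3930.4 and 3525 FPKM in L-1-OL-1. Its difference did not pass (0.99 ± 0.4, adjusted p = 0.0616), although the groups did not overlap, and it did pass with median-of-ratios scaling (1.27, adjusted p = 0.0257).

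Seed storage protein genes were higher in 86-1 almost throughout: 23 of 26 tested members were higher and 1 lower, and the median log2 difference was 4.32, 4.56 above that of all tested genes. Many of these genes are close relatives, and no source used here says how reads were shared among near-identical copies, so the split between single copies is uncertain. The 2S albumin gene47181, one of the sulphur-rich albumins of the protein bodies, had 22719.9, 12746 and 2561 FPKM in 86-1, against 2.01, 1.6 and 38.1 FPKM in L-1-OL-1. All libraries of 86-1 were far above those of L-1-OL-1, and replicate 3 was the lowest of 86-1 and the highest of L-1-OL-1 (10.39 ± 1.12, adjusted p = 9.28e-05). The legumin gene36171, a globulin of the 11S family, had 16162, 12095 and 2545 FPKM in 86-1, against 8.25, 8.77 and 168 FPKM in L-1-OL-1, and its replicates were ordered the same way (8.32 ± 1.15, adjusted p = 3.72e-04). The preproalbumin PawS1, gene11095, from whose precursor the small cyclic trypsin inhibitor of sunflower seeds is also cut, had 438, 395 and 215 FPKM in 86-1, against 0, 0 and 0.152 FPKM in L-1-OL-1 (8.32 ± 0.29, adjusted p = 9.39e-07). The 11S globulin gene27983 stayed detectable in both cultivars, with 34546, 25179 and 19429 FPKM in 86-1, against 1209.7, 1782 and 3853 FPKM in L-1-OL-1. The difference was smaller there (3.66 ± 0.51, adjusted p = 3.87e-04). The glutelin gene47733, which the list does not hold, differed by more, with 26070.1, 17903 and 7064 FPKM in 86-1, against 421, 183 and 773 FPKM in L-1-OL-1 (5.25 ± 0.64, adjusted p = 1.85e-04). One member went the other way: the albumin precursor gene70268 was lower in 86-1, with 31, 48.5 and 60.9 FPKM in 86-1, against 877, 1909 and 1410.5 FPKM in L-1-OL-1 (-4.85 ± 0.37, adjusted p = 1.40e-05).

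**Figure D3:**
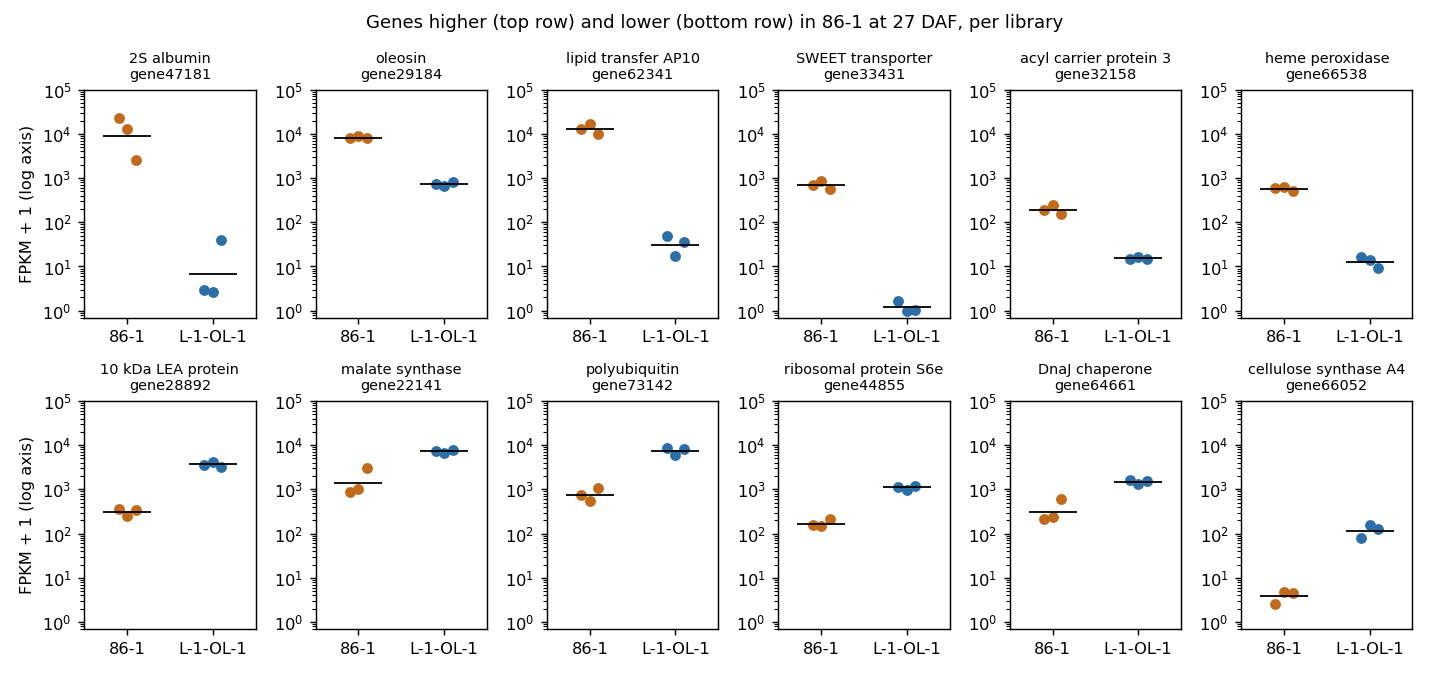
FPKM + 1 (log axis) of 12 genes in each library at 27 DAF, 86-1 left of L-1-OL-1, with points for the 3 libraries and a line at the mean of the log values. The 6 genes of the top row were higher and the 6 of the bottom row lower in 86-1, and in none of the 12 did the groups overlap.

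Lipid transfer proteins, small secreted proteins that bind lipids and include seed defence proteins, were also mostly higher in 86-1: 23 of 34 tested members were higher and 5 lower, and the median log2 difference was 2.19, 2.43 above that of all tested genes. The protein described as Ha-AP10, gene62341, had 12865, 16309 and 9761 FPKM in 86-1, against 47.5, 16.1 and 35.6 FPKM in L-1-OL-1. It was among the 15 highest genes of 86-1 and far lower in each library of L-1-OL-1 (8.67 ± 0.42, adjusted p = 2.09e-06). A second member, gene1146, had 338, 291 and 357 FPKM in 86-1, against 0.859, 2.67 and 2.53 FPKM in L-1-OL-1 (6.83 ± 0.3, adjusted p = 1.45e-06). In the other direction, gene66817 had 51.1, 50.6 and 51.7 FPKM in 86-1, against 225, 286 and 262 FPKM in L-1-OL-1 (-2.3 ± 0.22, adjusted p = 4.15e-05) and gene2885 had 0, 0.0166 and 0.0331 FPKM in 86-1, against 74.3, 66.2 and 50.1 FPKM in L-1-OL-1 (-5.97 ± 0.22, adjusted p = 1.02e-06). The GDSL lipases and related esterases, a large family of secreted hydrolases, were mostly higher as well: 45 of 57 tested members were higher and 4 lower, and the median log2 difference was 1.88, 2.12 above that of all tested genes. The esterase gene49070 had 318, 227 and 573 FPKM in 86-1, against 1.76, 1.25 and 0.517 FPKM in L-1-OL-1 (7.36 ± 0.37, adjusted p = 2.35e-06), whereas gene5491 was lower in 86-1 with 23.2, 22.6 and 32.7 FPKM in 86-1, against 100.2, 121 and 113 FPKM in L-1-OL-1 (-2.06 ± 0.23, adjusted p = 1.16e-04).

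Genes of fatty acid synthesis were higher in 86-1 in larger part. In the plastid pathway 15 of 26 tested members were higher and 3 lower, and the median log2 difference was 1.03, 1.27 above that of all tested genes. Without replicate 3 of 86-1, 6 members were lower. Acyl carrier protein 3, gene32158, which carries the growing acyl chain, had 185, 250.5 and 151 FPKM in 86-1, against 14.1, 15.4 and 14.1 FPKM in L-1-OL-1 (3.63 ± 0.24, adjusted p = 7.63e-06). The biotin carboxyl carrier of acetyl-CoA carboxylase, gene38366, the subunit of the committed step, had 53.5, 66 and 35.2 FPKM in 86-1, against 4.62, 7.4 and 6.52 FPKM in L-1-OL-1 (2.85 ± 0.29, adjusted p = 6.43e-05). Enoyl-ACP reductase 1, gene8057, which completes each elongation cycle, was lower instead, with 7.94, 11.8 and 21.6 FPKM in 86-1, against 34.1, 34.2 and 34.6 FPKM in L-1-OL-1 (-1.36 ± 0.33, adjusted p = 0.00753). Finished chains are released by thioesterases and activated by acyl-CoA synthetases, and of these genes 9 of 12 tested members were higher and the other 3 were not called. The palmitoyl-ACP thioesterase gene34054 had 10.5, 10.8 and 11.1 FPKM in 86-1, against 4.36, 4.18 and 4.15 FPKM in L-1-OL-1 (1.17 ± 0.19, adjusted p = 9.12e-04). Long-chain acyl-CoA synthetase 1, gene46285, had 41.1, 46.7 and 27.7 FPKM in 86-1, against 13.5, 13.8 and 9.82 FPKM in L-1-OL-1 (1.54 ± 0.26, adjusted p = 0.00122).

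The desaturases differed in a few members by a wide margin. The oleate desaturase gene64287, which turns oleic into linoleic acid, was the one called member of the 4 tested omega-6 genes. It had 568, 554 and 176 FPKM in 86-1, against 0.0902, 0.0735 and 0 FPKM in L-1-OL-1, and replicate 3 was the lowest library of 86-1 (8.5 ± 0.43, adjusted p = 2.35e-06). The other omega-6 genes had log2 differences of -0.86 ± 0.47 (gene1458), -0.23 ± 0.26 (gene44739) and 0.07 ± 0.41 (gene55389), with overlapping groups and adjusted p between 0.149 and 0.892. Without replicate 3 of L-1-OL-1, gene1458 passed as lower in 86-1 (-1.29, adjusted p = 0.0484). Of the omega-3 and other desaturases 5 of 11 tested members were higher (45.5%, against 23.8% of all tested genes) and 2 lower (18.2%, against 34%). The number lower was 1 without replicate 2 of L-1-OL-1. With a filter at a mean of at least 5 FPKM, 3 of 9 were higher and 2 lower. The endoplasmic reticulum omega-3 desaturase gene1691, which makes linolenic acid from linoleic acid, had 70.0, 107 and 80.5 FPKM in 86-1, against 26.6, 7.56 and 1.51 FPKM in L-1-OL-1, with a wide spread in L-1-OL-1 (3.35 ± 0.73, adjusted p = 0.00456). The plastid desaturase Helianthus_annuus_newGene_25987, described as acting on palmitoyl galactolipid, was lower in 86-1, with 1.56, 2.59 and 3.49 FPKM in 86-1, against 11.5, 11.2 and 7.72 FPKM in L-1-OL-1 (-1.67 ± 0.28, adjusted p = 0.00103).

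Oil body and triacylglycerol genes held members both ways. Of the oil body proteins 10 of 22 tested members were higher and 3 lower, and the median log2 difference was 0.61, 0.86 above that of all tested genes. The oleosin gene29184, a coat protein of oil bodies, had 7969.9, 8859 and 7924 FPKM in 86-1, against 734, 653 and 815 FPKM in L-1-OL-1 (3.49 ± 0.3, adjusted p = 2.57e-05). The oleosin gene77732 had 5591, 6972 and 4861 FPKM in 86-1, against 883, 956 and 1331 FPKM in L-1-OL-1 (2.46 ± 0.33, adjusted p = 3.29e-04). All 3 lower members were seipins, which shape oil bodies as they form at the endoplasmic reticulum. The seipin gene20216 had 102, 120.2 and 141 FPKM in 86-1, against 252, 248 and 294 FPKM in L-1-OL-1 (-1.13 ± 0.24, adjusted p = 0.00372). In triacylglycerol and phospholipid assembly 13 of 49 tested members were higher (26.5%, against 23.8% of all tested genes) and 14 lower (28.6%, against 34%). The number lower was 9 without replicate 1 or without replicate 2 of 86-1 and 19 without its replicate 3. A diacylglycerol acyltransferase, gene69246, the enzyme of the last acylation, was higher with 19.6, 22.1 and 21.7 FPKM in 86-1, against 9.86, 10.1 and 9.53 FPKM in L-1-OL-1 (1.03 ± 0.19, adjusted p = 0.00193). Gene50246, of the family of phospholipid:diacylglycerol acyltransferases, was lower with 4.24, 4.93 and 6.05 FPKM in 86-1, against 29.3, 22.1 and 19.2 FPKM in L-1-OL-1 (-2.0 ± 0.24, adjusted p = 1.61e-04). Gene62503, an enzyme of phosphatidylcholine synthesis that activates phosphorylcholine, was lower too, with 9.19, 8.55 and 17.6 FPKM in 86-1, against 66.4, 66 and 63.9 FPKM in L-1-OL-1 (-2.45 ± 0.29, adjusted p = 1.41e-04).

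Sugar transporter genes were mostly higher in 86-1. Of them 21 of 36 tested members were higher and 3 lower, and the median log2 difference was 1.47, 1.71 above that of all tested genes, with 5 lower when replicate 3 of 86-1 was left out. The SWEET transporter gene33431, of a family that lets sucrose or hexoses out of cells along their gradient, had 682, 877 and 567 FPKM in 86-1, against 0.684, 0 and 0.0384 FPKM in L-1-OL-1 (9.18 ± 0.28, adjusted p = 8.82e-07). The sucrose transport protein gene15616, of the proton-coupled family that takes sucrose up, had 107, 143 and 173 FPKM in 86-1, against 18.5, 33.9 and 23.8 FPKM in L-1-OL-1 (2.44 ± 0.29, adjusted p = 1.67e-04). The sugar transporter gene43842 had 116, 153 and 137 FPKM in 86-1, against 8.61, 7.39 and 7.82 FPKM in L-1-OL-1 (3.92 ± 0.21, adjusted p = 2.90e-06). Of the sucrose synthases and invertases, which cleave sucrose, 14 of 28 tested members were higher and 4 lower, and the median log2 difference was 1.11, 1.36 above that of all tested genes. Fitted with all 12 libraries, 2 rather than 4 were lower. The cell wall invertase Helianthus_annuus_newGene_24588 had 35.4, 36.4 and 114 FPKM in 86-1, against 2.9, 0.987 and 0.623 FPKM in L-1-OL-1 (4.53 ± 0.5, adjusted p = 1.05e-04). The beta-fructofuranosidase gene25067 was lower, with 0.253, 2.49 and 0.851 FPKM in 86-1, against 31, 39.7 and 16 FPKM in L-1-OL-1 (-3.81 ± 0.44, adjusted p = 1.38e-04).

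Carbon metabolism after sucrose cleavage held differences both ways. In glycolysis and the pyruvate dehydrogenase complex 47 of 117 tested members were higher and 28 lower, and the median log2 difference was 0.35, 0.6 above that of all tested genes. The E1 alpha subunit of pyruvate dehydrogenase, gene60486, had 93.8, 124 and 75.2 FPKM in 86-1, against 17, 23.9 and 20.6 FPKM in L-1-OL-1 (2.18 ± 0.26, adjusted p = 1.53e-04). Cytosolic triosephosphate isomerase, gene26384, had 80.3, 97.2 and 76.1 FPKM in 86-1, against 28.7, 41.9 and 43.2 FPKM in L-1-OL-1 (1.15 ± 0.24, adjusted p = 0.00393). Pyruvate dehydrogenase kinase, gene27753, which inactivates that complex, was lower with 25.4, 26.8 and 40.5 FPKM in 86-1, against 67.5, 61.2 and 53.9 FPKM in L-1-OL-1 (-0.98 ± 0.25, adjusted p = 0.00941). In starch metabolism 12 of 29 tested members were higher (41.4%, against 23.8% of all tested genes) and 4 lower (13.8%, against 34%). The number lower was 2 without replicate 2 of L-1-OL-1. At a mean of 10 FPKM or more in either cultivar, 3 of 10 members were higher and 3 lower. The large subunit gene21809 of ADP-glucose pyrophosphorylase, which supplies starch synthesis, had 24.4, 32.7 and 20.4 FPKM in 86-1, against 1.17, 1.48 and 2.08 FPKM in L-1-OL-1 (3.37 ± 0.25, adjusted p = 1.27e-05).

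Proteins of drying and late maturation held members both ways. The LEA and dehydrin genes took 2.23%, 2.49% and 4.18% of the FPKM total in 86-1, against 7.59%, 5.89% and 5.31% in L-1-OL-1. Of their 29 tested members, 5 were higher (17.2%, against 23.8% of all tested genes) and 9 lower (31%, against 34%) in 86-1, with a median of -0.63 (-0.39 relative to that of all tested genes). The count depended on single libraries: 17 were lower without replicate 3 of 86-1, 5 without its replicate 1, 4 without its replicate 2 and 5 without replicate 1 of L-1-OL-1, and 3 were higher without replicate 2 of 86-1 or replicate 3 of L-1-OL-1. Fitted with all 12 libraries, 3 were higher and 5 lower, and with quantile normalization 8 were higher and 11 lower. The 10 kDa LEA protein gene28892 had 364, 252 and 339 FPKM in 86-1, against 3651, 4230.4 and 3278 FPKM in L-1-OL-1 (-3.55 ± 0.29, adjusted p = 2.06e-05). Its relative gene28899 had 300.2, 418 and 583 FPKM in 86-1, against 5345, 3484 and 2222 FPKM in L-1-OL-1 (-3.05 ± 0.41, adjusted p = 3.40e-04). A stress induced protein, gene57771, had 161, 156 and 285 FPKM in 86-1, against 3734, 2216 and 1953 FPKM in L-1-OL-1 (-3.7 ± 0.37, adjusted p = 6.13e-05). All 3 were at least 3 times as high in the lowest library of L-1-OL-1 as in the highest of 86-1. The most abundant gene of L-1-OL-1, the 11 kDa LEA protein gene42840, had 3825, 4051 and 5384 FPKM in 86-1, against 11865, 6385 and 7454 FPKM in L-1-OL-1, which did not pass (-0.92 ± 0.39, adjusted p = 0.0753) but did with quantile normalization (-1.94, adjusted p = 0.00686). The 18 kDa seed maturation protein gene6880 was higher in 86-1, with 91.6, 112 and 208 FPKM in 86-1, against 0.144, 0.271 and 0.256 FPKM in L-1-OL-1 (6.73 ± 0.31, adjusted p = 1.77e-06). The LEA-18 gene53479 was lower, with 369, 586 and 1330.0 FPKM in 86-1, against 2691, 2200.3 and 2612 FPKM in L-1-OL-1 (-1.91 ± 0.46, adjusted p = 0.00766).

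Heat shock and chaperone genes held members both ways. Of the small heat shock proteins 9 of 49 tested members were higher and 16 lower (32.7%, against 34% of all tested genes), with a median of -0.37, -0.12 relative to that of all tested genes, and with quantile normalization 14 were higher and 15 lower. The small heat shock protein gene12607 had 82.6, 108 and 193 FPKM in 86-1, against 488, 283 and 359.5 FPKM in L-1-OL-1 (-1.61 ± 0.37, adjusted p = 0.00561). The class II protein gene10371 had 52.6, 40.5 and 64.4 FPKM in 86-1, against 216, 149 and 158 FPKM in L-1-OL-1 (-1.72 ± 0.27, adjusted p = 7.12e-04; adjusted p = 0.207 in a fit of all 12 libraries). The HSP20-like gene50436 was higher, with 89.6, 148 and 138 FPKM in 86-1, against 12, 2.82 and 5.89 FPKM in L-1-OL-1 (4.14 ± 0.43, adjusted p = 7.65e-05). Of the HSP70, HSP90, DnaJ and chaperonin genes 27 of 228 tested members were higher and 96 lower, and the median log2 difference was -0.54, -0.3 relative to that of all tested genes. The lower share was 42.1%, against 34% of all tested genes. With median-of-ratios scaling 41 were higher and 92 lower. The DnaJ protein gene64661, a co-chaperone of HSP70, had 209, 239 and 602 FPKM in 86-1, against 1643, 1291 and 1529 FPKM in L-1-OL-1 (-2.25 ± 0.42, adjusted p = 0.00200). The 70 kDa heat shock protein gene19393 had 45.7, 53.9 and 88.6 FPKM in 86-1, against 339.7, 357 and 399 FPKM in L-1-OL-1 (-2.58 ± 0.29, adjusted p = 1.17e-04). Of the heat shock factors, which switch these genes on, 2 of 20 tested members were higher and 6 lower (30%, again against 34%), with 10 lower without replicate 3 of 86-1 and 1 higher without replicate 3 of L-1-OL-1. The factor gene65464 had 11.2, 17.5 and 20.3 FPKM in 86-1, against 56.5, 50.4 and 57.3 FPKM in L-1-OL-1 (-1.72 ± 0.26, adjusted p = 5.73e-04).

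Genes used in oil breakdown, known for serving the seedling after germination, took 0.346%, 0.361% and 0.790% of the FPKM total in 86-1, against 1.55%, 1.61% and 1.76% in L-1-OL-1. The highest of them was malate synthase, gene22141, an enzyme of the glyoxylate cycle that turns acetyl-CoA from fat towards sugar, with 851, 995 and 3112 FPKM in 86-1, against 7375, 6772 and 7702 FPKM in L-1-OL-1 (-2.4 ± 0.51, adjusted p = 0.00400; adjusted p = 0.138 in a fit of all 12 libraries). Replicate 3 of 86-1 was the nearest to L-1-OL-1. Acyl-CoA oxidase 4, gene46999, of peroxisomal beta-oxidation, had 49.6, 62.1 and 89 FPKM in 86-1, against 242, 252 and 267 FPKM in L-1-OL-1 (-1.95 ± 0.27, adjusted p = 3.65e-04). Over the list 4 of 28 tested members were higher and 7 lower (25%, against 34% of all tested genes), with 12 lower without replicate 3 of 86-1 and 4 lower in the fit of all 12 libraries. A pair of very abundant genes outside the lists were lower in 86-1. Polyubiquitin, gene73142, the precursor of the tag for protein breakdown, had 735, 538 and 1099 FPKM in 86-1, against 8422, 6011 and 8176 FPKM in L-1-OL-1 (-3.3 ± 0.37, adjusted p = 1.17e-04). A glycine-rich protein, gene18005, had 951, 992 and 998 FPKM in 86-1, against 3032, 5174 and 6949 FPKM in L-1-OL-1 (-2.28 ± 0.38, adjusted p = 9.89e-04). Of the peroxiredoxin, catalase and metallothionein genes 9 of 23 tested members were higher (39.1%, against 23.8% of all tested genes) and 3 lower (13.0%, against 34%). The number lower was 9 without replicate 3 of 86-1. One of the genes described as catalase isozyme 1, gene52092, whose product breaks down hydrogen peroxide, was lower with 225, 193 and 352 FPKM in 86-1, against 563, 876 and 967 FPKM in L-1-OL-1 (-1.65 ± 0.34, adjusted p = 0.00330; adjusted p = 0.0910 in a fit of all 12 libraries). Among the metallothioneins, which bind metals, 2 named members were higher. The metallothionein gene33324 had 1199.9, 1744 and 2021 FPKM in 86-1, against 115, 4.22 and 6.22 FPKM in L-1-OL-1 (6.63 ± 1.02, adjusted p = 6.98e-04) and gene1422 had 701, 689 and 1425 FPKM in 86-1, against 112, 79.1 and 53.4 FPKM in L-1-OL-1 (3.49 ± 0.39, adjusted p = 1.10e-04).

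Translation genes were lower in 86-1 as a broad group. Of the ribosomal proteins whose description names no organelle, 19 of 414 tested members were higher and 229 lower, and the median log2 difference was -0.81, -0.57 relative to that of all tested genes. Under both other scalings more members were still lower than higher: 39 were higher and 215 lower with median-of-ratios scaling, with a median of -0.56, and 41 were higher and 188 lower with quantile normalization, with a median of -0.44. Ribosomal protein S6e, gene44855, of the small subunit, had 152, 144 and 216 FPKM in 86-1, against 1125, 980.0 and 1221 FPKM in L-1-OL-1 (-2.71 ± 0.27, adjusted p = 6.08e-05). Gene2104, of the L18/L5 family, had 140.4, 145 and 179.8 FPKM in 86-1, against 827, 717 and 945 FPKM in L-1-OL-1 (-2.41 ± 0.25, adjusted p = 7.77e-05). The ribosomal protein L3 gene46722 was among the exceptions, with 70.1, 78.1 and 88.3 FPKM in 86-1, against 8.36, 3.43 and 5.47 FPKM in L-1-OL-1 (3.62 ± 0.29, adjusted p = 1.94e-05). Of the translation factors 5 of 100 tested members were higher and 59 lower, and the median log2 difference was -0.84, -0.6 relative to that of all tested genes. Elongation factor 1-alpha, gene28147, which brings aminoacyl-tRNA to the ribosome, had 471, 504 and 576 FPKM in 86-1, against 1446, 1464 and 1762 FPKM in L-1-OL-1 (-1.59 ± 0.27, adjusted p = 0.00113). Elongation factor 1-beta, gene57060, its exchange factor, had 89.4, 95.9 and 104 FPKM in 86-1, against 481, 448 and 404 FPKM in L-1-OL-1 (-2.19 ± 0.22, adjusted p = 6.98e-05). The abundant translationally controlled tumor protein gene24803 is in neither of these lists. It had 639, 868 and 1525 FPKM in 86-1, against 3125, 2914 and 2807 FPKM in L-1-OL-1 (-1.64 ± 0.38, adjusted p = 0.00587).

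Genes for the organelles went different ways. Pentatricopeptide repeat proteins, which process RNAs of mitochondria and plastids, were more often lower: 4 of 164 tested members were higher and 78 lower, and the median log2 difference was -0.59, -0.34 relative to that of all tested genes. With median-of-ratios scaling 10 were higher and 78 lower, and with quantile normalization 7 and 98. The member gene69864 had 8.58, 11 and 15.8 FPKM in 86-1, against 51, 69 and 67.4 FPKM in L-1-OL-1 (-2.34 ± 0.27, adjusted p = 1.28e-04). In mitochondrial respiration 27 of 85 tested members were higher and 12 lower, and the median log2 difference was 0.42, 0.66 above that of all tested genes. The NADH-ubiquinone oxidoreductase subunit gene45869, of complex I, had 55.6, 72.1 and 78.7 FPKM in 86-1, against 21.7, 24 and 27.7 FPKM in L-1-OL-1 (1.45 ± 0.23, adjusted p = 7.81e-04), while the cytochrome b-c1 subunit gene9561, of complex III, had 52.8, 63.5 and 64.7 FPKM in 86-1, against 144, 134 and 159 FPKM in L-1-OL-1 (-1.26 ± 0.22, adjusted p = 0.00127). The succinate dehydrogenase subunit gene74834, of complex II, had 63.3, 75.1 and 110.2 FPKM in 86-1, against 185, 236 and 209 FPKM in L-1-OL-1 (-1.36 ± 0.27, adjusted p = 0.00286). The higher members of respiration were more numerous under the other scalings, with 49 higher and 12 lower under median-of-ratios scaling and 53 higher and 13 lower under quantile normalization.

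Histone genes were mostly higher in 86-1, and cell division genes differed both ways. Of the histones 55 of 92 tested members were higher and 9 lower, and the median log2 difference was 1.05, 1.3 above that of all tested genes, with 31 higher and 7 lower in the fit of all 12 libraries. The linker-type histone gene21994, described as H5, had 379, 498 and 464 FPKM in 86-1, against 36.6, 31.9 and 22.1 FPKM in L-1-OL-1 (3.86 ± 0.26, adjusted p = 8.16e-06). Histone H3.3, gene39432, the replacement form of H3, had 77.2, 107 and 115 FPKM in 86-1, against 36.8, 44.4 and 42.5 FPKM in L-1-OL-1 (1.24 ± 0.24, adjusted p = 0.00230). The H2B gene30908 was lower, with 8.13, 8.38 and 18.3 FPKM in 86-1, against 45.2, 45.4 and 34.6 FPKM in L-1-OL-1 (-1.84 ± 0.32, adjusted p = 0.00138). Of cyclins, kinesins and replication genes 29 of 120 tested members were higher (24.2%, against 23.8% of all tested genes) and 43 lower (35.8%, against 34%). Both shares were near those of all tested genes. The cyclin-like gene58756 had 17.1, 19.9 and 33.9 FPKM in 86-1, against 128, 103 and 106 FPKM in L-1-OL-1 (-2.26 ± 0.29, adjusted p = 2.30e-04). The kinesin gene72682, a microtubule motor, had 2.55, 5.43 and 12.9 FPKM in 86-1, against 269.8, 286 and 195 FPKM in L-1-OL-1 (-5.18 ± 0.46, adjusted p = 3.03e-05). The phragmoplast-associated kinesin gene40816, of the structure that lays down the new cell wall, was at 41, 52.7 and 72.3 FPKM in 86-1 and was listed at 0 in all 3 libraries of L-1-OL-1 (adjusted p = 1.43e-06).

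**Figure D4:**
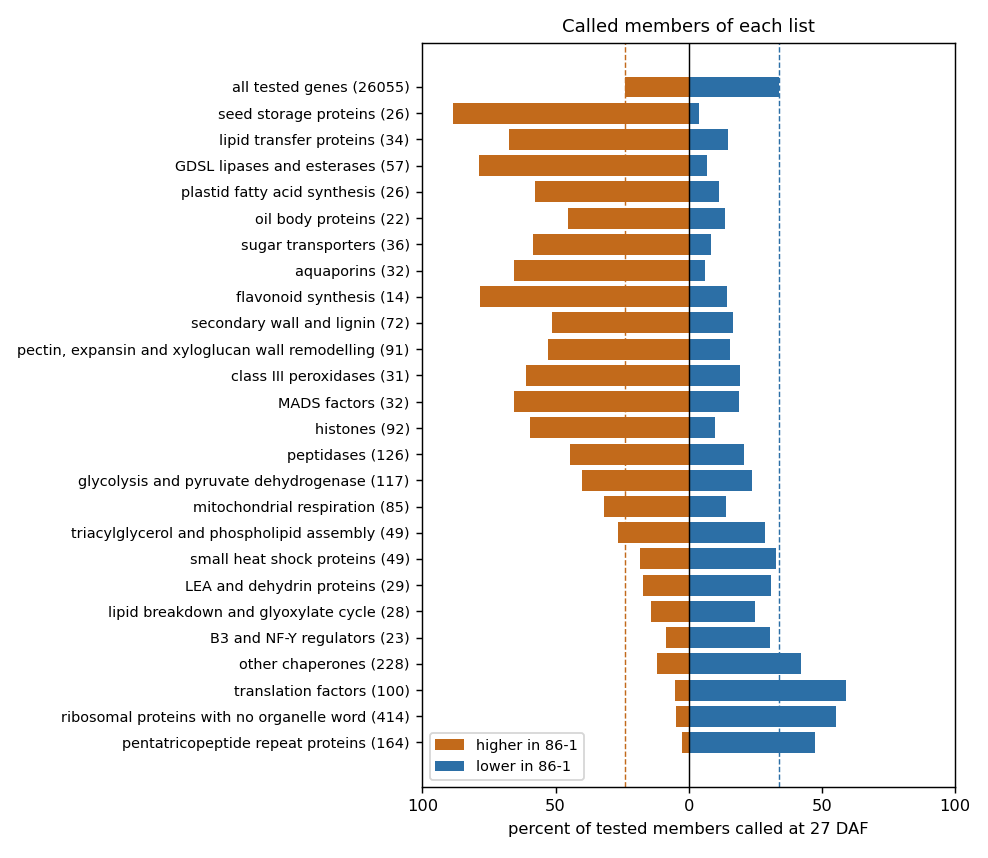
Percent of the tested members of 26 gene sets called at 27 DAF, with members higher in 86-1 drawn to the left and members lower in 86-1 to the right, and the number of tested members in brackets. Dashed lines mark the shares over all tested genes, 23.8% higher and 34% lower. Seed storage proteins were 88.5% higher and pentatricopeptide repeat proteins 47.6% lower.

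Cell wall genes were mostly higher in 86-1, with some exceptions. In secondary wall and lignin 37 of 72 tested members were higher and 12 lower, and the median log2 difference was 0.99, 1.24 above that of all tested genes. Caffeic acid O-methyltransferase, gene16817, of lignin precursor synthesis, had 70.9, 116 and 109 FPKM in 86-1, against 3.34, 3.05 and 3.01 FPKM in L-1-OL-1 (4.56 ± 0.24, adjusted p = 2.88e-06). Cinnamyl alcohol dehydrogenase 1, gene81089, of its last step, had 51.6, 80.9 and 98.2 FPKM in 86-1, against 22.6, 21.5 and 19.2 FPKM in L-1-OL-1 (1.77 ± 0.27, adjusted p = 6.90e-04). Cellulose synthase A4, gene66052, of the secondary wall complex, was lower in 86-1, with 1.5, 3.86 and 3.46 FPKM in 86-1, against 78.5, 156 and 124 FPKM in L-1-OL-1 (-4.94 ± 0.35, adjusted p = 9.36e-06). A laccase, gene32089, of a family that polymerises lignin, had 2.37, 2.6 and 3.95 FPKM in 86-1, against 7.92, 74.5 and 53.3 FPKM in L-1-OL-1 (-3.08 ± 0.7, adjusted p = 0.00568). Here replicate 1 was far below the other libraries of L-1-OL-1. The COBRA-like gene5852, of a family that orients cellulose, was listed at 0 in all 3 libraries of 86-1 and at 50.6, 62.8 and 57.5 FPKM in L-1-OL-1 (adjusted p = 8.88e-07). In pectin, expansin and xyloglucan remodelling 48 of 91 tested members were higher and 14 lower, and the median log2 difference was 1.04, 1.28 above that of all tested genes. A pectinesterase inhibitor, gene56150, had 114, 188 and 145 FPKM in 86-1, against 11.3, 8.1 and 15.8 FPKM in L-1-OL-1 (3.58 ± 0.3, adjusted p = 2.22e-05). Of the class III peroxidases, secreted enzymes that crosslink walls, 19 of 31 tested members were higher and 6 lower, and the median log2 difference was 1.25, 1.5 above that of all tested genes. The heme peroxidase gene66538 had 595, 633 and 500.1 FPKM in 86-1, against 15.1, 13 and 8.44 FPKM in L-1-OL-1 (5.48 ± 0.27, adjusted p = 2.07e-06) and the peroxidase gene18330 had 184, 289 and 139 FPKM in 86-1, against 0.54, 0.576 and 0.0783 FPKM in L-1-OL-1 (7.15 ± 0.31, adjusted p = 1.43e-06).

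The labels do not say which parts of the seed were taken, so hull, seed coat and vascular tissue were read through marker genes, some of which are also in the wall lists. The counts of called markers stand beside 23.8% higher and 34% lower over all tested genes. Laccases, cellulose synthases A, fasciclin-like proteins and cinnamyl alcohol dehydrogenases together summed to 297, 417 and 451 FPKM in 86-1, against 219.8, 360.2 and 264 FPKM in L-1-OL-1. Of these 67 genes 31 were tested, 18 were higher and 6 lower, and 11 were listed at 0 in all 6 libraries. Green tissue markers, namely Rubisco small chain, chlorophyll a/b-binding and photosystem genes, summed to 266, 209.9 and 449.9 FPKM in 86-1, against 480.3, 243 and 236 FPKM in L-1-OL-1, and 7 of 37 tested members were higher and 4 lower. Without replicate 1 of L-1-OL-1 11 were higher, without replicate 2 of 86-1 2 were lower, and 4 were higher in the fit of all 12 libraries. Cuticle and wax genes summed to 132, 157 and 179.7 FPKM in 86-1, against 104, 205 and 168 FPKM in L-1-OL-1. Of 18 tested members 5 were higher and 5 lower (27.8% each way, against 23.8% and 34% of all tested genes). The number lower was 3 without replicate 1 or 2 of 86-1 or replicate 3 of L-1-OL-1, with median-of-ratios scaling, without the filter or with all 12 libraries, and 2 without replicate 2 of L-1-OL-1. The SWEET-class transporters summed to 1255, 1649 and 1249 FPKM in 86-1, against 24.6, 21.8 and 14.4 FPKM in L-1-OL-1, and 12 of 14 tested members were higher and the other two were not called. A single gene in the table, at 0.356, 0.467 and 0 FPKM in 86-1 and listed at 0 in all 3 libraries of L-1-OL-1, has a description that names the seed coat or endosperm, and it did not pass the filter. The part of unequal tissue content in the differences was not tested.

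Aquaporins were mostly higher in 86-1, and peptidases and proteinase inhibitors differed both ways. Of the aquaporins, channels for water, 21 of 32 tested members were higher and 2 lower, and the median log2 difference was 1.53, 1.78 above that of all tested genes, or 4 lower without replicate 3 of L-1-OL-1. The aquaporin-like gene12361 had 132, 153 and 194 FPKM in 86-1, against 46.5, 47.3 and 38.3 FPKM in L-1-OL-1 (1.82 ± 0.24, adjusted p = 2.67e-04), whereas gene30158 was listed at 0 in all 3 libraries of 86-1 and at 12.6, 16.4 and 12.1 FPKM in L-1-OL-1 (adjusted p = 2.49e-06). Of the peptidases 56 of 126 tested members were higher and 26 lower, and the median log2 difference was 0.48, 0.73 above that of all tested genes. Legumains are proteases known for cutting storage protein precursors. The legumain gene23513 had 229.6, 280.4 and 201 FPKM in 86-1, against 33.5, 28.2 and 34.6 FPKM in L-1-OL-1 (2.84 ± 0.23, adjusted p = 1.92e-05). Gene35703 had 147, 219 and 444 FPKM in 86-1, against 30.0, 5.79 and 1.17 FPKM in L-1-OL-1 (4.98 ± 0.86, adjusted p = 0.00131). The aspartic peptidase gene7444 was lower, with 23, 24.5 and 35.6 FPKM in 86-1, against 361, 255 and 313 FPKM in L-1-OL-1 (-3.45 ± 0.26, adjusted p = 1.33e-05). Of the proteinase inhibitors 10 of 31 tested members were higher (32.3%, against 23.8% of all tested genes) and 8 lower (25.8%, against 34%). The number lower was 4 without replicate 1 of 86-1 and 5 without the filter or with all 12 libraries. The Kunitz inhibitor gene23126 had 237, 328 and 295 FPKM in 86-1, against 64.8, 63.7 and 42 FPKM in L-1-OL-1 (2.33 ± 0.27, adjusted p = 1.27e-04). Its relative gene71712 was lower, with 0.518, 0.475 and 12.4 FPKM in 86-1, against 431, 87.6 and 53.2 FPKM in L-1-OL-1 (-5.36 ± 0.99, adjusted p = 0.00185). In gene71712, replicate 3 of 86-1 and replicate 1 of L-1-OL-1 stood apart from the other libraries of their groups.

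Flavonoid and cytochrome P450 genes included some of the widest gaps. In flavonoid synthesis 11 of 14 tested members were higher and 2 lower, and the median log2 difference was 1.77, 2.02 above that of all tested genes. Dihydroflavonol 4-reductase, gene57861, which leads towards anthocyanins and condensed tannins, had 628, 697 and 204 FPKM in 86-1, against 0.132, 0.119 and 0.219 FPKM in L-1-OL-1 (8.6 ± 0.44, adjusted p = 2.35e-06). Flavonoid 3'-monooxygenase, gene33009, which hydroxylates the flavonoid B ring, was lower, with 13.1, 13.5 and 16.8 FPKM in 86-1, against 43.5, 35.4 and 31.9 FPKM in L-1-OL-1 (-1.29 ± 0.22, adjusted p = 0.00124). Of the cytochrome P450 enzymes 52 of 140 tested members were higher (37.1%, against 23.8% of all tested genes) and 45 lower (32.1%, against 34%). The P450 gene37868 had 673, 935 and 303 FPKM in 86-1, against 0, 0.0311 and 0.0273 FPKM in L-1-OL-1 (9.14 ± 0.38, adjusted p = 1.31e-06). Gene17179, of the CYP78A family, had 9.35, 9.71 and 25.3 FPKM in 86-1, against 133, 149.8 and 147 FPKM in L-1-OL-1 (-3.33 ± 0.36, adjusted p = 9.91e-05).

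Seed regulators differed both ways. Of the B3 and NF-Y genes 2 of 23 tested members were higher (8.7%, against 23.8% of all tested genes) and 7 lower (30.4%, against 34%). With replicate 1 of 86-1 left out 5 were higher. With median-of-ratios scaling 6 were higher and 7 lower, and with quantile normalization 5 and 6. The AP2/B3-like gene67251 had 484, 343 and 241 FPKM in 86-1, against 15.1, 7.52 and 19.2 FPKM in L-1-OL-1 (4.61 ± 0.38, adjusted p = 2.19e-05). The leafy cotyledon 1-like gene73129, of the NF-YB family, whose relatives in Arabidopsis promote embryo and oil genes, was at 21.8, 26.3 and 6.56 FPKM in 86-1 and listed at 0 in all 3 libraries of L-1-OL-1 (adjusted p = 9.67e-05). For both, replicate 3 was the lowest library of 86-1. Of the MADS-box genes 21 of 32 tested members were higher and 6 lower, and the median log2 difference was 1.4, 1.64 above that of all tested genes. The MADS-box gene37857 had 68.6, 83.7 and 67.1 FPKM in 86-1, against 2.6, 2.57 and 0.493 FPKM in L-1-OL-1 (4.78 ± 0.36, adjusted p = 1.22e-05). Gene2759 was lower, with 1.17, 0.786 and 1.53 FPKM in 86-1, against 30.6, 22.2 and 24.5 FPKM in L-1-OL-1 (-3.63 ± 0.23, adjusted p = 6.18e-06).

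The other factor families held single genes with large differences both ways. Over all tested genes 23.8% were higher and 34% lower, and brackets after the counts give each family's shares. Of the NAC genes 22 of 60 tested members were higher and 9 lower (36.7% and 15%). The NAC gene57884 had 141, 122 and 113 FPKM in 86-1, against 1.21, 7.21 and 1.29 FPKM in L-1-OL-1 (5.18 ± 0.48, adjusted p = 3.84e-05). Gene59554 was lower, with 43.5, 32.3 and 48.5 FPKM in 86-1, against 111, 161 and 108 FPKM in L-1-OL-1 (-1.58 ± 0.26, adjusted p = 0.00107; adjusted p = 0.118 in a fit of all 12 libraries). Of the AP2/ERF genes 17 of 52 were higher and 20 lower (32.7% and 38.5%). The ethylene-responsive element binding protein gene24763 had 194, 233 and 195 FPKM in 86-1, against 7.11, 16.9 and 11.6 FPKM in L-1-OL-1 (4.09 ± 0.31, adjusted p = 1.27e-05). The AP2-like gene13327 had 6.37, 7.87 and 18.1 FPKM in 86-1, against 136, 175 and 172 FPKM in L-1-OL-1 (-3.9 ± 0.36, adjusted p = 3.90e-05). Of the bZIP genes 12 of 50 were higher and 13 lower (24% and 26%). The bZIP gene45949 had 21.7, 28.9 and 26.8 FPKM in 86-1, against 93.7, 114 and 104 FPKM in L-1-OL-1 (-1.97 ± 0.22, adjusted p = 1.04e-04). In gene73603, with 9.52, 7.63 and 33.7 FPKM in 86-1, against 106, 116 and 76.1 FPKM in L-1-OL-1, replicate 3 of 86-1 was the nearest to L-1-OL-1 (-2.75 ± 0.49, adjusted p = 0.00160). Of the bHLH genes 35 of 84 were higher and 20 lower (41.7% and 23.8%). Among the lower ones gene46632 had 3.45, 3.06 and 4.14 FPKM in 86-1, against 41.3, 36.3 and 41 FPKM in L-1-OL-1 (-3.16 ± 0.2, adjusted p = 6.24e-06). Of the MYB genes 23 of 89 were higher and 32 lower (25.8% and 36.0%, near the shares of all tested genes), or 21 lower without replicate 2 of L-1-OL-1. The MYB gene38554 was higher, with 176, 202 and 209 FPKM in 86-1, against 31.5, 8.55 and 2.43 FPKM in L-1-OL-1 (4.26 ± 0.68, adjusted p = 8.62e-04). Of the WRKY genes 23 of 67 were higher and 14 lower (34.3% and 20.9%). The number lower was 7 without replicate 1 of 86-1 or replicate 2 of L-1-OL-1, and 9 without replicate 3 of L-1-OL-1 or without the filter. The WRKY gene Helianthus_annuus_newGene_26351 was at 10.4, 15.5 and 20.5 FPKM in 86-1 and listed at 0 in all 3 libraries of L-1-OL-1 (adjusted p = 6.39e-06).

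Single hormone genes differed by wide margins in both directions. The ethylene-forming enzyme, 1-aminocyclopropane-1-carboxylate oxidase gene66576, had 802, 1041 and 648 FPKM in 86-1, against 19.9, 67.1 and 60.8 FPKM in L-1-OL-1 (4.2 ± 0.46, adjusted p = 9.73e-05). Allene oxide synthase, gene38121, of jasmonate synthesis, had 92.6, 147 and 43.1 FPKM in 86-1, against 5.82, 1.53 and 1.28 FPKM in L-1-OL-1 (4.64 ± 0.53, adjusted p = 1.30e-04). Gibberellin 20-oxidase, gene68726, of active gibberellin synthesis, had 25.6, 39.2 and 14 FPKM in 86-1, against 0.229, 0.0525 and 0.63 FPKM in L-1-OL-1 (4.3 ± 0.37, adjusted p = 2.55e-05). A DELLA repressor of gibberellin signalling, gene40284, was lower with 25.7, 22.6 and 50.8 FPKM in 86-1, against 111, 119 and 84.5 FPKM in L-1-OL-1 (-1.71 ± 0.33, adjusted p = 0.00236). In the abscisic acid pathway 7 of 29 tested members were higher (24.1%, against 23.8% of all tested genes) and 10 lower (34.5%, against 34%). With replicate 2 of 86-1 left out 4 were higher, and under either other scaling 12 were higher and 9 lower. Zeaxanthin epoxidase, gene16746, of an early step of abscisic acid synthesis, had 15.6, 27.1 and 18 FPKM in 86-1, against 0.379, 0.347 and 0.036 FPKM in L-1-OL-1 (4.06 ± 0.26, adjusted p = 6.28e-06). The abscisic acid-induced phosphatase gene57604 was lower with 15.3, 22.6 and 27.9 FPKM in 86-1, against 65.6, 57.7 and 48.1 FPKM in L-1-OL-1 (-1.37 ± 0.27, adjusted p = 0.00263), as was gene57769, described as induced by abscisic acid in carrot somatic embryos, with 17.2, 26.4 and 26.5 FPKM in 86-1, against 422, 257 and 219 FPKM in L-1-OL-1 (-3.59 ± 0.31, adjusted p = 2.81e-05). A dormancy/auxin associated gene, gene13316, had 0.357, 0.95 and 5.74 FPKM in 86-1, against 103, 126 and 104 FPKM in L-1-OL-1 (-5.41 ± 0.53, adjusted p = 5.21e-05).

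The largest differences among well-expressed genes were in genes of mixed function, lower in 86-1 first. A glucose/ribitol dehydrogenase, gene49859, had 0.19, 0.193 and 0.72 FPKM in 86-1, against 292, 223 and 333 FPKM in L-1-OL-1 (-7.7 ± 0.25, adjusted p = 8.82e-07). Another gene with the same description, gene15654, was abundant in both cultivars, with 1021, 1695 and 4289 FPKM in 86-1, against 3177, 2281 and 2291 FPKM in L-1-OL-1, and its groups overlapped (-0.39 ± 0.52, adjusted p = 0.551). It passed as lower without replicate 3 of 86-1 (-0.95, adjusted p = 0.0492). A berberine-family oxidase, gene34506, had 0.0866, 0.239 and 0.14 FPKM in 86-1, against 435, 219 and 94.2 FPKM in L-1-OL-1 (-7.5 ± 0.48, adjusted p = 6.15e-06). A transketolase, gene31479, of the pentose phosphate pathway, had 0, 0.0359 and 0.0212 FPKM in 86-1, against 108, 145 and 158 FPKM in L-1-OL-1 (-7.06 ± 0.22, adjusted p = 8.82e-07). The thiolase-like Helianthus_annuus_newGene_29121 had 0.12, 0.124 and 0.095 FPKM in 86-1, against 148, 188 and 241 FPKM in L-1-OL-1 (-7.41 ± 0.23, adjusted p = 8.82e-07). The histone demethylase of the JMJ706 type, Helianthus_annuus_newGene_26366, was listed at 0 in all 3 libraries of 86-1 and at 67.2, 81.5 and 80.8 FPKM in L-1-OL-1 (adjusted p = 8.82e-07). In the other direction, a lysosomal thiol reductase of the GILT family, gene1766, had 419, 444 and 276 FPKM in 86-1, against 0.816, 0.0585 and 0 FPKM in L-1-OL-1 (8.23 ± 0.31, adjusted p = 1.02e-06). The gamma thionin Helianthus_annuus_newGene_18250, of a family of small antimicrobial proteins, was at 483, 771 and 449 FPKM in 86-1 and listed at 0 in all 3 libraries of L-1-OL-1 (adjusted p = 8.82e-07).

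The same genes were then read at 17 DAF, in libraries that did not enter the calls at 27 DAF. The calls at 17 DAF came from the fit of all 12 libraries, whose spread also draws on the libraries of 27 DAF. They are therefore not independent of the calls at 27 DAF, which favour genes of small spread there. The libraries of 17 DAF were also uneven within each cultivar. Seed storage protein genes took 31.9%, 9.85% and 9.42% of the FPKM total in 86-1, against 31.7%, 18.4% and 0.796% in L-1-OL-1. A wide spread makes a call harder, both at 17 DAF and between the stages, and its part in the counts was not tested. Of the 15 largest differences with 86-1 lower, 14 were also called lower in 86-1 at 17 DAF. Of the 15 largest with 86-1 higher, 4 were called higher at 17 DAF and 3 lower. Over all genes called at 27 DAF, 2268 of the 6204 higher in 86-1 (36.6%) were called higher at 17 DAF and 292 (4.71%) lower, and of the 8867 lower in 86-1, 2139 (24.1%) were called lower at 17 DAF and 149 (1.68%) higher. Among all tested genes 3034 (11.6%) were called higher and 2889 (11.1%) lower at 17 DAF. Of the genes higher in 86-1 at 27 DAF by 4 or more on the log2 scale, 147 of 356 were called higher and 46 lower at 17 DAF. Of those lower by as much, 260 of 296 were called lower.

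Many genes were listed at 0 in 1 cultivar. At 27 DAF, 825 tested genes were listed at 0 in all 3 libraries of L-1-OL-1 and 976 in all 3 of 86-1, and all of them had to differ to pass the filter on low values. Models labelled as new genes in the table made up 50.4% of the 825 and 73.1% of the 976, against 5043 of the 26055 tested genes. At 17 DAF, 634 of the 825 (76.8%) were called higher and 49 lower in 86-1, and 854 of the 976 (87.5%) were called lower. The spread in that fit takes in the 3 libraries listed at 0, which do not vary, so these shares are favoured by how the genes were chosen. The authors' treatment of reads shared by near-identical genes is unknown here, so a copy that takes the reads of another cannot be told apart from one that is not expressed.

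The difference between cultivars was then tested against that at 17 DAF, in a fit of all 12 libraries. The cultivar difference at 27 DAF differed from that at 17 DAF for 6144 genes (23.6%). Without replicate 2 of L-1-OL-1 at 17 DAF the count was 3819, and with quantile normalization it was 9511. A smaller set of 376 genes (1.44%) was called at both stages in opposite directions, 255 of them higher in 86-1 at 27 DAF and lower at 17 DAF and 121 the reverse. The largest change was in gene71046, described as a galactose oxidase with kelch repeats. At 17 DAF it had 11, 1.8 and 1.47 FPKM in 86-1, against 82.7, 361 and 145 FPKM in L-1-OL-1. Its levels at 27 DAF were 548, 796 and 773 FPKM in 86-1, against 0.292, 0 and 0 FPKM in L-1-OL-1. All libraries of 86-1 were below those of L-1-OL-1 at 17 DAF and above them at 27 DAF (interaction 14.56 ± 0.83, adjusted p = 2.26e-06). The lipid transfer protein gene62341 had 1104, 5.68 and 38.6 FPKM in 86-1, against 770.0, 5051 and 875 FPKM in L-1-OL-1 at 17 DAF, where its values varied widely and the groups overlapped, and its libraries of 86-1 were all above those of L-1-OL-1 at 27 DAF, with the values given above (interaction 13.17 ± 1.96, adjusted p = 8.57e-04). At 17 DAF carbonic anhydrase, gene38651, which interconverts carbon dioxide and bicarbonate, had 118, 90.8 and 113 FPKM in 86-1, against 361, 549 and 300.4 FPKM in L-1-OL-1. The levels at 27 DAF were 383, 703 and 328 FPKM in 86-1, against 3.49, 0 and 0 FPKM in L-1-OL-1 (interaction 9.95 ± 0.74, adjusted p = 1.09e-05). Other genes turned the opposite way. At 17 DAF the cellulose synthase gene16513 had 29.8, 66 and 84.2 FPKM in 86-1, against 3.05, 3.18 and 2.93 FPKM in L-1-OL-1. By 27 DAF the gene had 0, 0.014 and 0.106 FPKM in 86-1, against 3.88, 3.77 and 3.78 FPKM in L-1-OL-1 (interaction -6.0 ± 0.45, adjusted p = 1.11e-05). At 17 DAF the CYP78A family P450 gene24430 had 11.8, 64.4 and 77.1 FPKM in 86-1, against 2.43, 0.985 and 4.64 FPKM in L-1-OL-1. At 27 DAF it had 2.77, 3.32 and 2.77 FPKM in 86-1, against 36.3, 23.2 and 19.2 FPKM in L-1-OL-1 (interaction -6.32 ± 0.83, adjusted p = 4.13e-04).

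**Figure D5:**
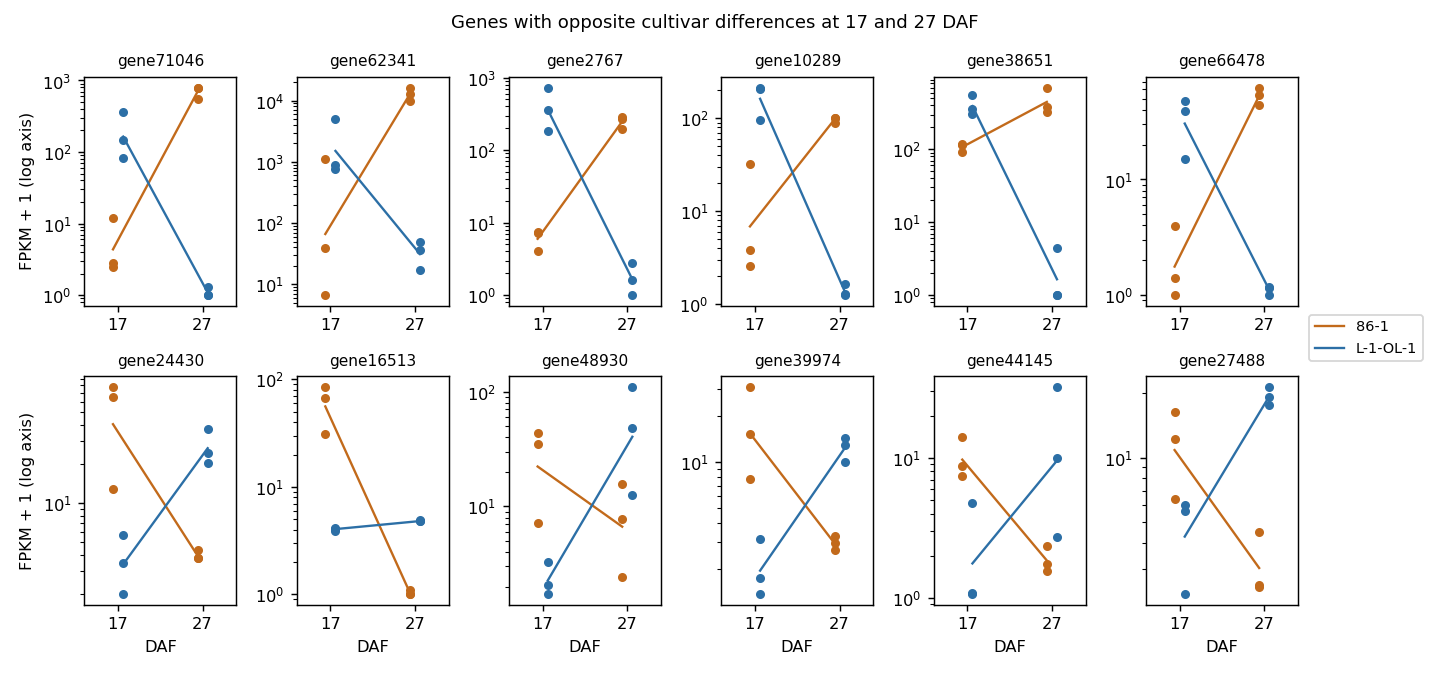
FPKM + 1 (log axis) of 12 genes whose cultivar difference was called in opposite directions at 17 and 27 DAF, with points for the 3 libraries of each cultivar at each stage and lines through the means of the log values. In the 6 genes of the top row 86-1 was lower at 17 DAF and higher at 27 DAF, and in the 6 of the bottom row it was higher at 17 DAF and lower at 27 DAF. The groups of gene62341 overlapped at 17 DAF and those of gene48930 at 27 DAF.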

How the data were processed

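RNA from sunflower seeds was sequenced in 12 libraries, 3 for each cultivar and stage, grouped by their labels. The authors deposited 1 table of FPKM values per gene and library. A second deposited table gives each gene's best protein match with a match score, made by the authors in a search of the nr database. Its descriptions named the genes, the score was not used, and it holds 65535 lines, so later genes may lack a description. The submitters' processing notes name, with no role or order, RSEM 1.2.12, HISAT2 2.0.4, DESeq2 1.4.5 and Bowtie2 2.2.5. No source used here gives the genome build, so no coordinates or sequences are printed. FPKM holds no counts, so depth and counting error are unknown. Any filter by the authors is likewise unknown.

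Genes at 1 FPKM or more in at least 3 of the 6 libraries of 27 DAF were tested on log2(FPKM + 1) with limma 3.58.1 in R 4.3.3. The fit had 1 mean per cultivar and a mean-variance trend. The 2-sided p-values took the Benjamini-Hochberg adjustment across the whole set tested, and 0.05 was the threshold. Values at 17 DAF and the interaction with stage came from a fit of all 12 libraries. The fit of the 6 libraries was tried on simulated data in which few genes differed, unlike the data here, and the fit of all 12 libraries was not tried so. Members and gene lists, matched by words in the descriptions, were chosen with earlier results of these data known.

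Genes were named by a rule. It takes the 15 largest differences each way among called genes with a mean of at least 10 FPKM in the higher group, no overlap and a protein name, and the 15 genes of highest mean FPKM in each cultivar. It adds up to 4 called members of each list and direction by level, all members of lists of 8 or fewer, and the 6 largest interactions each way among genes called in opposite directions at the 2 stages. The rule took in 455 genes, and 134 are given in the text, a choice made with the values known that favoured genes called without any single library. Alternatives were a pseudocount of 0.1, no filter, a mean of at least 5 FPKM, median-of-ratios scaling, quantile normalization, no trend, all 12 libraries, a replicate block and leaving out each library.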

Additional observations from a re-analysis of the deposited data

Results flagged for a closer look

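The cultivar difference of 12 genes was called in opposite directions at the 2 stages, and the difference between stages was itself called in limma's fit of all 12 libraries. Each was among the 6 largest such changes in its direction at a mean of 10 FPKM or more in some group, out of 244 genes. Values below are the interaction, the cultivar difference at 27 DAF minus that at 17 DAF on the log2(FPKM + 1) scale, with its SE and Benjamini-Hochberg adjusted p.

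In 6 genes 86-1 was called lower at 17 DAF and higher at 27 DAF, although the groups of gene62341 overlapped at 17 DAF, with replicate 1 of 86-1 above 2 libraries of L-1-OL-1. They were the kelch-repeat gene71046 (14.6), the lipid transfer protein gene62341 (13.2), gene2767 of the 2S albumin and lipid transfer superfamily (13.1 ± 0.69, adjusted p = 1.75e-06), the hypothetical protein gene10289 (10.7 ± 1.00, adjusted p = 4.66e-05), carbonic anhydrase gene38651 (9.95) and the pollen Ole e 1 family gene66478 (9.69 ± 0.7, adjusted p = 9.41e-06). At 17 DAF gene2767 had 6.09, 3.07 and 6.41 FPKM in 86-1, against 179.9, 729 and 355 FPKM in L-1-OL-1. Its levels at 27 DAF were 198, 267 and 287 FPKM in 86-1, against 1.81, 0.596 and 0 FPKM in L-1-OL-1. At 17 DAF gene10289 had 31.6, 1.58 and 2.84 FPKM in 86-1, against 95.8, 214 and 205 FPKM in L-1-OL-1. The levels at 27 DAF were 101, 89.1 and 99.8 FPKM in 86-1, against 0.645, 0.248 and 0.269 FPKM in L-1-OL-1. At 17 DAF gene66478 had 2.92, 0 and 0.401 FPKM in 86-1, against 14.1, 47.2 and 37.9 FPKM in L-1-OL-1. By 27 DAF the gene had 43.1, 61.4 and 52.7 FPKM in 86-1, against 0.161, 0 and 0.17 FPKM in L-1-OL-1. In all 3 the libraries of the cultivars were apart at both stages.

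In the other 6 genes 86-1 was called higher at 17 DAF and lower at 27 DAF. They were the P450 gene24430 (-6.32), cellulose synthase gene16513 (-6.0), the cystatin gene48930 (-5.9 ± 1.23, adjusted p = 0.00560), the sulphate transporter family gene39974 (-5.04 ± 0.62, adjusted p = 2.85e-04), the asparaginase 2 family gene44145 (-4.82 ± 1.07, adjusted p = 0.00775) and gene27488, described as a regulator of Vps4 (-4.02 ± 0.6, adjusted p = 8.96e-04). At 17 DAF gene39974 had 6.76, 14.2 and 30.0 FPKM in 86-1, against 0.749, 0.369 and 2.13 FPKM in L-1-OL-1. At 27 DAF it had 1.66, 1.96 and 2.28 FPKM in 86-1, against 9.06, 13.4 and 11.9 FPKM in L-1-OL-1. At 17 DAF gene27488 had 5.39, 15.3 and 11.2 FPKM in 86-1, against 5.02, 1.29 and 4.65 FPKM in L-1-OL-1. Its levels at 27 DAF were 1.47, 1.53 and 3.5 FPKM in 86-1, against 20.5, 16.7 and 18.2 FPKM in L-1-OL-1. Both were apart at each stage.

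The last pair rested on wider spreads at 27 DAF. At 17 DAF gene48930 had 6.12, 42.9 and 34.3 FPKM in 86-1, against 2.25, 1.08 and 0.709 FPKM in L-1-OL-1. The levels at 27 DAF were 1.41, 14.6 and 6.83 FPKM in 86-1, against 11.5, 47 and 109 FPKM in L-1-OL-1, with overlapping groups, and its difference at 27 DAF (adjusted p = 0.0303) passed in 2 of the 6 fits that left out a library of 27 DAF. At 17 DAF gene44145 had 6.45, 13.1 and 7.72 FPKM in 86-1, against 3.74, 0.0947 and 0.0617 FPKM in L-1-OL-1. By 27 DAF the gene had 0.744, 1.35 and 0.554 FPKM in 86-1, against 31.1, 8.9 and 1.74 FPKM in L-1-OL-1, and its difference at 27 DAF (adjusted p = 0.0250) passed in 3 of the 6.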

How the results depend on the processing

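The counts at 27 DAF stayed within 1.5 times of those reported under the alternatives tried, except with a stricter filter. With a mean of at least 5 FPKM, 14103 genes were tested and 7858 called, 2519 higher and 5339 lower in 86-1, with 5899 by 2-fold or more, and 32.1% of the calls were higher. The interaction called 3632 genes with that filter and 9511 with quantile normalization. Fewer genes were tested under the filter, and the cause of the second change was not tested. The other settings called 13492 (all 12 libraries) to 19146 genes (no filter, 45508 tested) at 27 DAF. Fits without 1 library called 12417 to 16161 genes at 27 DAF, 5366 to 6407 higher and 6931 to 10441 lower, with 10494 to 11934 by 2-fold or more. The interaction called 3819 to 7908, fewest without replicate 2 of L-1-OL-1 at 17 DAF.

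Libraries with the same number did not all deviate together across the cultivars (r = 0.0775, 0.133 and -0.151 across genes), so the numbers were not taken as pairs. With a replicate block 14781 genes were called, and the interaction called 7808 in place of 6144. No gene given in the text changed direction. With all 12 libraries the calls of gene10371, gene22141, gene52092 and gene59554 were lost. Those of gene44145 and gene48930 were lost without the filter (adjusted p = 0.0648 and 0.0741), and median-of-ratios scaling gave them 0.0538 and 0.0542. No call of these genes changed under the replicate block or a pseudocount of 0.1. FPKM gives no read numbers, so no counting error can be set beside a low value.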

Other observations

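Other lists are given beside the shares over all tested genes at 27 DAF, which were 23.8% higher, 34% lower and 57.8% called. Of the amino acid and peptide transporters, which move nitrogen compounds across membranes, 66 of 118 tested members were higher and 22 lower in 86-1, with 12 lower without replicate 1 of 86-1 or replicate 2 of L-1-OL-1 and 13 without replicate 2 of 86-1. Of the leucine-rich repeat kinases, a family of cell-surface receptors, 39 of 80 were higher and 14 lower, or 9 lower without replicate 1 of 86-1. Of these kinases 66.3% were called, and of the transporters 74.6%. Of the glucose/ribitol dehydrogenases 17 of 44 were higher and 5 lower (50% called). Of the glutathione enzymes 21 of 62 were higher and 14 lower (56.5%). Of the lipoxygenases, which oxidise polyunsaturated fatty acids, 5 of 10 were higher and 1 lower (60%). In the gibberellin pathway 20 of 55 were higher and 13 lower (60%). In the auxin pathway 37 of 104 were higher and 30 lower (64.4%), with 15 lower without replicate 1 of 86-1 and 16 without replicate 2 of either cultivar. Some of these splits changed among members with a mean of 10 FPKM or more in either cultivar. Higher and lower members there were 1 and 1 for lipoxygenases, 2 and 4 for the kinases, 3 and 10 for gibberellin and 4 and 10 for auxin. They were 22 and 12 for the transporters, 10 and 4 for glucose/ribitol dehydrogenases and 11 and 5 for glutathione enzymes. Both tested stearoyl-ACP desaturases, which make the oleoyl chain in plastids, were higher, with a median log2 difference of 3.90.

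The counts of the remaining lists moved with single libraries or with the scaling. Of the proteasome subunits 12 of 48 were higher and 9 lower, while 24 were higher with median-of-ratios scaling and 29 with quantile normalization. Of them 3 were lower without replicate 2 or 3 of L-1-OL-1, 4 without replicate 1 or 2 of 86-1 and 5 with all 12 libraries. In tocopherol synthesis 5 of 13 were higher and 1 lower, while 9 were higher under either other scaling and 3 without replicate 2 of 86-1 or replicate 3 of L-1-OL-1, and 2 with all 12 libraries. Of the ethylene and jasmonate genes 6 of 24 were higher and 4 lower, while 11 were higher with median-of-ratios scaling, 2 were lower without replicate 1 or 2 of 86-1, and 1 was lower without either replicate 2 or replicate 3 of L-1-OL-1. In photosynthesis 8 of 44 were higher and 5 lower, while 5 were higher without replicate 2 of L-1-OL-1 or with all 12 libraries. Of these genes 8 were lower without replicate 3 of 86-1, 2 without its replicate 2, and 3 without replicate 1 of either cultivar or with all 12 libraries. Of the autophagy genes 5 of 22 were higher and 3 lower, while 3 were higher with all 12 libraries, with a replicate block, and without any 1 library except replicate 1 of 86-1. The number lower was 0 without replicate 2 of L-1-OL-1, 1 without replicate 1 or 2 of 86-1 or replicate 1 of L-1-OL-1, and 5 without replicate 3 of 86-1.

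Genes listed at 0 in a whole cultivar at 27 DAF were then read at 17 DAF, in sets chosen after their values were seen. At 27 DAF 353 genes were listed at 0 in all 3 libraries of 86-1 and at 5 FPKM or more in all 3 of L-1-OL-1. At 17 DAF, 332 of these were listed at 0 in replicate 1 of 86-1, 332 in replicate 2 and 24 in replicate 3, where the median was 0.463 FPKM. Their medians in L-1-OL-1 at 17 DAF were 3.56, 5.0 and 7.13 FPKM. The reverse set held 179 genes, at 5 FPKM or more in all 3 libraries of 86-1 and listed at 0 in all 3 of L-1-OL-1. Their medians at 17 DAF were 9.40, 9.84 and 10.2 FPKM in 86-1, against 0.0377, 0.0428 and 0.0301 FPKM in L-1-OL-1. Without replicate 3 of 86-1 at 17 DAF the interaction called 4382 genes in place of 6144. This count cannot show whether that library is unusual, since fits without some other libraries also called fewer genes. Without replicate 2 of 86-1 at 17 DAF 4163 were called, and without its replicate 1 6774. Over all fits without 1 library the count was 3819 to 7908.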
